A study of Mus musculus with 12 samples.

Results

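The proteasome genes were described in RNA-seq libraries from mice that lack Xap5 in germ cells or Xap5l in the whole body. Members were chosen by name alone, as every entry whose symbol begins with Psma, Psmb, Psmc, Psmd, Psme, Psmf or Psmg followed by a number, leaving out Psmc3ip and pseudogene names. The rule took 49 of 51826 entries of the sperm table and 60 of 23502 entries of the testis table. The testis entries carry 50 names, since 10 of them repeat a name with an added number, such as Psmb6-2. What sets such a second entry apart from the first is not given in the sources used here, so the entries were tested separately. Psme3ip1, which encodes a protein that binds the activator Psme3 and is no proteasome subunit, was also taken by the rule, in the testis table alone.

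There were 4 groups of 3 libraries each. WT and Xap5l KO sperm came from the cauda epididymis at P56, and the Xap5l KO is a global knockout made with CRISPR/Cas9. WT and Xap5 cKO testes were taken at P16, and the cKO carries floxed Xap5 deleted by a Stra8-driven GFP-Cre fusion that acts in germ cells, so somatic testis cells keep the gene. The study describes its cKO controls as floxed males without Cre, while the libraries are labelled WT.

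The proteasome degrades proteins tagged with ubiquitin. Its 20S core is a barrel of alpha rings, which gate the entry, around beta rings, which hold the proteolytic sites, and a 19S cap of ATPases and non-ATPase subunits binds and unfolds the substrate. Some cells swap single subunits. Immune cells use the inducible beta subunits Psmb8, Psmb9 and Psmb10 in place of Psmb5, Psmb6 and Psmb7, and male germ cells in meiosis use the alpha subunit Psma8 in place of Psma7. The core can also bind other caps, among them Psme4, a nuclear activator that is abundant in the testis.

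Library totals ranged from 32251198 to 52308452 counts. Leaving out entries with an added number, members took 0.53 to 0.554% of counts in WT testes and 0.428 to 0.456% in Xap5 cKO testes. In sperm the share was 0.14 to 0.197% in WT and 0.15 to 0.219% in Xap5l KO. Fam50a and Fam50b were taken as the symbols of Xap5 and Xap5l from general knowledge, since the labels do not pair the names. Fam50b had 574, 440 and 419 counts across WT, against 18, 23 and 8 across Xap5l KO sperm. Fam50a had 819, 811 and 988 counts in the WT libraries, compared with 673, 616 and 651 in those of Xap5 cKO testes, so much of its RNA remained in the whole testis. Fam50b was lower there as well, with 6, 0 and 7 counts in the cKO libraries and 532, 539 and 197 in those of WT. In bulk samples such as these, fewer cells of a type and less RNA per cell cannot be told apart.

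Promoters of 3 members are shown because these genes moved in different directions in the testis (Psma7 up, Psmb6 and Psme4 down) and hold different short motifs. Each sequence is a window across a RefSeq transcript start, most of it upstream, and is given 5′ to 3′ on the gene's own strand (build GRCm38.p6). Capitals mark matches on either strand to the GC box, spelled GGGCGG, to the CCAAT box, to the motif TGACNNNGC or to the TATA box, spelled TATAAA. TGACNNNGC is the core of the element bound by Nfe2l2 and by Nfe2l1, the latter known to drive proteasome genes.
Psma7 (chr2:180042415-180042714, minus strand): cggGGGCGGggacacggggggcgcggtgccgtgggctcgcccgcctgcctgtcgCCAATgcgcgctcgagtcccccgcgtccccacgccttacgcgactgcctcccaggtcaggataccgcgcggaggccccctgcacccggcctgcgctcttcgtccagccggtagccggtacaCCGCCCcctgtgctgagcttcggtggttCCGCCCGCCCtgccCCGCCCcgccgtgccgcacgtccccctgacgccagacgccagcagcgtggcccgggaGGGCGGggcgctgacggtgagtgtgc
Psmb6 (chr11:70525107-70525406, plus strand): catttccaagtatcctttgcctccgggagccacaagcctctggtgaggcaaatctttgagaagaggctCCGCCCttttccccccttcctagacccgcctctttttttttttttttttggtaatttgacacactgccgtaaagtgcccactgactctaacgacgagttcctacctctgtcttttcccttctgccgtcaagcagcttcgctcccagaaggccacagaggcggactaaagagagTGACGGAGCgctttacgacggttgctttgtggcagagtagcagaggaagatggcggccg
Psme4 (chr11:30771525-30771824, plus strand): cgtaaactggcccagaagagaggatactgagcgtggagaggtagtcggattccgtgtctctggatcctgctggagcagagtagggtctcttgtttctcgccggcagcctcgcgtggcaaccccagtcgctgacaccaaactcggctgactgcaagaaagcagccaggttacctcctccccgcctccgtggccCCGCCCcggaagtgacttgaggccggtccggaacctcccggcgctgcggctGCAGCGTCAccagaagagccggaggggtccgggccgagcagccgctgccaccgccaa
The Psma7 promoter held 6 GC boxes, 1 CCAAT and no TGACNNNGC, whereas the Psmb6 and Psme4 promoters each held 1 GC box and 1 TGACNNNGC. The 3 were picked with their directions and motifs known, so this contrast is a description of them alone. Of the other members with TGACNNNGC, Psmc6 was called lower in Xap5 cKO testes (log2 fold change -0.25), and Psmd9 (-0.01), Psmd12 (-0.02) and Psmb5 (-0.23) were not called.

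Of the 46 listed promoters of 42 members, 54.3% held a GC box, against 35.7% of all 32851 RefSeq promoters of the same length. The longer GC motif GGGCGGGG, which contains the GC box, was in 28.3% of member promoters and in 17.6% of all. CCAAT was in 32.6% and 37.4%, TATAAA in 8.7% and 13.6%, and TGACNNNGC in 13% and 12.4%, respectively. The 6 member promoters with TGACNNNGC belong to Psmb5, Psmb6, Psmc6, Psmd9, Psmd12 and Psme4. Median GC content was 57.3% for member promoters and 52.7% for all, and GC boxes are themselves made of G and C. Psma8, Psmb1, Psmb2, Psmb7, Psmc3, Psmd3, Psmd7 and Psmg2 were not in the promoter table used here.

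In the testis, the question was which genes differ between whole Xap5 cKO and WT testes at P16. Psma8 was downregulated far more than any other proteasome gene in Xap5 cKO testes, while its somatic counterpart Psma7 was modestly upregulated. Around them, 24 of 55 tested entries were downregulated at an adjusted p under 0.05, all but Psma8 by less than 2-fold. These held 5 of 6 base ATPases, 6 of 11 Psmd-named non-ATPase cap subunits and 4 of 7 constitutive beta subunits. Another 4 entries were upregulated, and 27 were not called. Tests were quasi-likelihood fits in edgeR, with Benjamini-Hochberg adjustment over all genes of the table.

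Across all 16821 tested testis genes, 28.1% were called lower and 25% higher. The members called lower make up 43.6% of those tested, and those called higher 7.27%. The median level was 85.9 CPM for members and 25.5 for all tested genes, so these shares were not matched for level. At more than 2-fold, 10.9% of all genes were lower and 4.15% higher, whereas among members 1 entry (Psma8) was lower and 1 (Psmd10-2) higher. The median log2 fold change of the members was -0.19, with quartiles of -0.36 and -0.02, and that of all genes was -0.01. In 29 entries every Xap5 cKO library lay below every WT library, and in 4 every one lay above. For all genes these shares were 32.4% and 29.9%. Leaving out entries with an added number gave 23 lower and 3 higher of 49.

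Psma8 encodes the alpha subunit of the germ-cell proteasome and lies on chromosome 18 (14706151 to 14762301, plus strand, GRCm38). It had 7457, 7118 and 5056 counts across WT, against 896, 808 and 1197 across Xap5 cKO testes. The groups were far apart, with the highest cKO library well under the lowest WT library. In CPM (counts scaled to library size, with TMM factors), the level was 186 ± 41.5 (SD, n = 3) in WT and 29.3 ± 6.44 in cKO testes, a log2 fold change of -2.67 (SE 0.196, adjusted p = 1.81e-05, edgeR). Leaving out each library in turn gave -2.85 to -2.52.

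WT testis replicate 3 was the lowest of its group for Psma8, at 141 CPM against 222 and 195. The same library was lowest for the summed level of 10 pachytene spermatocyte markers, at 970 CPM against 1840 and 1760 in replicates 1 and 2. In the Xap5 cKO testes that sum was 204, 202 and 240 CPM, and replicate 3, the highest of the cKO for these markers, was also the highest for Psma8 at 36.4 CPM. Of the pachytene markers, 8 of 10 were downregulated, among them Piwil1 (log2 fold change -6.30) and Ldhc (-6.19). The part of germ-cell composition in the Psma8 difference was not tested.

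Psma7, the alpha subunit that Psma8 replaces, had 4957, 5257 and 5436 counts in the WT libraries, compared with 5949, 6331 and 5741 in those of Xap5 cKO testes. All cKO libraries were above all WT libraries, at 182 ± 6.37 against 148 ± 3.44 CPM (log2 fold change 0.30, SE 0.0564, adjusted p = 0.00182, edgeR). Per kilobase of the principal transcript, Psma8 stood at 110 ± 24.5 CPM in WT testes, in the alpha ring below Psma7 (162), Psma6 (119) and Psma4 (115), and its spread covered the last 2 of these. With the merged length of all exons that order changed: Psma8 (74.6) lay below Psma6 (101) and above Psma5 (61.3), Psma4 (56.6) and Psma7 (48.1). In Xap5 cKO testes it was the lowest of the 8 at 17.3 ± 3.81 CPM per kilobase.

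Within each library, Psma8 per length was 0.813, 0.731 and 0.502 times Psma7 in the WT libraries, against 0.0814, 0.0689 and 0.113 times in the Xap5 cKO libraries. The geometric mean was 0.668 in WT and 0.0858 in cKO testes, with no overlap, and the exact two-sided permutation p was 0.1, the smallest that 3 against 3 libraries allow. With the merged length of all exons in place of the principal transcript, the WT ratio was 1.52 and the cKO ratio 0.196, so which of the pair is the more abundant in WT testes depends on the length used, while the change between genotypes does not.

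**Figure D1:**
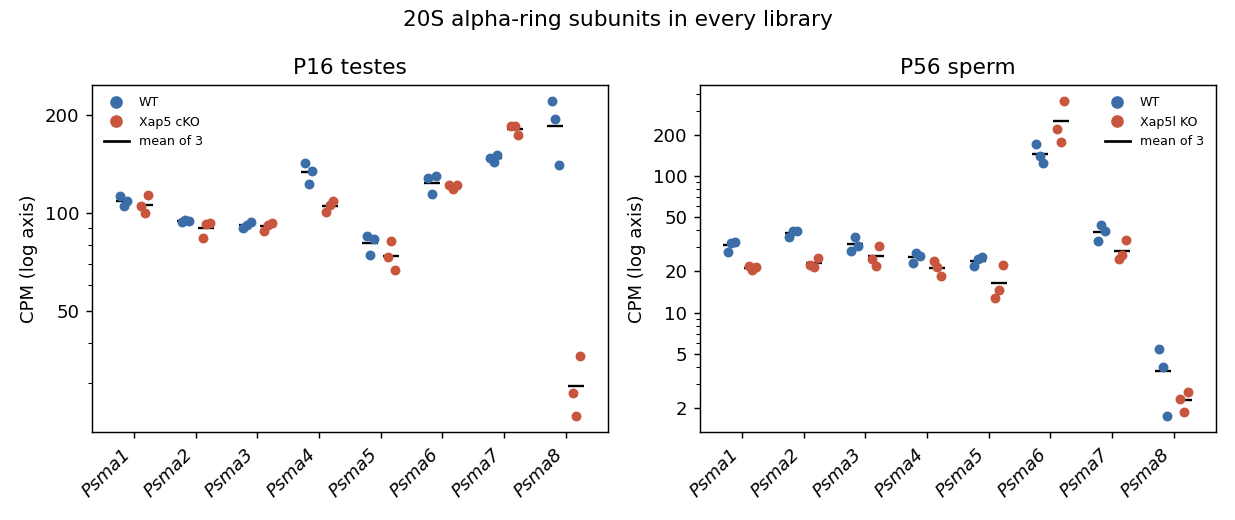
CPM (log axis) of the 8 alpha-ring genes in every library of testes (left) and sperm (right). Points are libraries in WT (blue) and knockout (red), and black bars are means of 3. In testes Psma8 runs from 141 to 222 CPM in WT and from 23.7 to 36.4 in Xap5 cKO, while in sperm its groups overlap.

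The other alpha-ring genes moved little. Psma4 was downregulated, from 134 ± 10.1 to 105 ± 3.98 CPM (log2 fold change -0.35, adjusted p = 0.00299, edgeR). Psma1, Psma2, Psma3, Psma5 and Psma6 had log2 fold changes between -0.13 and -0.02 and were not called.

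In the beta ring all 7 constitutive genes had negative estimates, and Psmb1, Psmb2, Psmb3 and Psmb6 were called. The calls of Psmb1 (log2 fold change -0.17), Psmb2 (-0.20) and Psmb3 (-0.27) were lost in 3, 4 and 4 of the 6 fits without 1 library, and DESeq2 did not call Psmb2 (adjusted p = 0.0596). Psmb6, which carries the caspase-like site, had 1486, 1612 and 1417 counts across WT, against 1089, 919 and 798 across Xap5 cKO testes, with no overlap (log2 fold change -0.59, SE 0.132, adjusted p = 0.00489, edgeR). Its second entry, Psmb6-2, had 1522, 1628 and 1430 counts in the WT libraries, compared with 1108, 1557 and 1552 in those of cKO testes, and those groups overlap (-0.03, adjusted p = 0.876). Summed, the 2 entries gave -0.28 (adjusted p = 0.0114), so the size of the Psmb6 change depends on how the entries are read. Psmb5, which carries the chymotrypsin-like site, was at 77.1 ± 6.48 and 65.7 ± 4.37 CPM and narrowly missed the threshold (-0.23, adjusted p = 0.0516). Psmb7, which carries the trypsin-like site, was at 137 ± 4.76 and 119 ± 11.6 CPM (-0.20, adjusted p = 0.0598).

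The inducible beta subunits were scarce in the testis. Psmb8 had 51, 48 and 42 counts across WT, against 73, 53 and 28 across Xap5 cKO testes. Psmb9 had 55, 56 and 29 counts in the WT libraries, compared with 31, 42 and 38 in those of cKO testes. Psmb8-2 held 51, 48 and 40 WT counts and 71, 53 and 26 cKO counts, close to the first entry. Psmb9-2 held 54, 55 and 8 WT counts and 28, 41 and 38 cKO counts, and so departed from Psmb9 in WT replicate 3. Neither was called (0.21 and -0.05), and Psmb8-3, Psmb8-4, Psmb9-3 and Psmb9-4 had 13 or fewer counts per library and were not tested. Psmb10 was more abundant, at 12.3 ± 1.71 CPM in WT and 14.4 ± 1.75 in cKO testes. Psmb8, Psmb9 and Psmb10 were not called (log2 fold changes of 0.22, -0.25 and 0.22), and the groups of each overlapped. Psmb11, the thymic beta subunit, had 3 or fewer counts in each testis library and was not tested. Per length, the WT testis ratios to the constitutive partner were 0.00952 for Psmb8 to Psmb5, 0.0176 for Psmb9 to Psmb6 and 0.079 for Psmb10 to Psmb7. The cKO ratios were 0.0121, 0.0234 and 0.106, and the exact permutation p-values were 0.5, 0.3 and 0.2. Psmb8 and Psmb9 lie next to Tap1 in the major histocompatibility region, and exons of Psmb9 overlap those of Tap1 in the annotation.

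**Figure D2:**
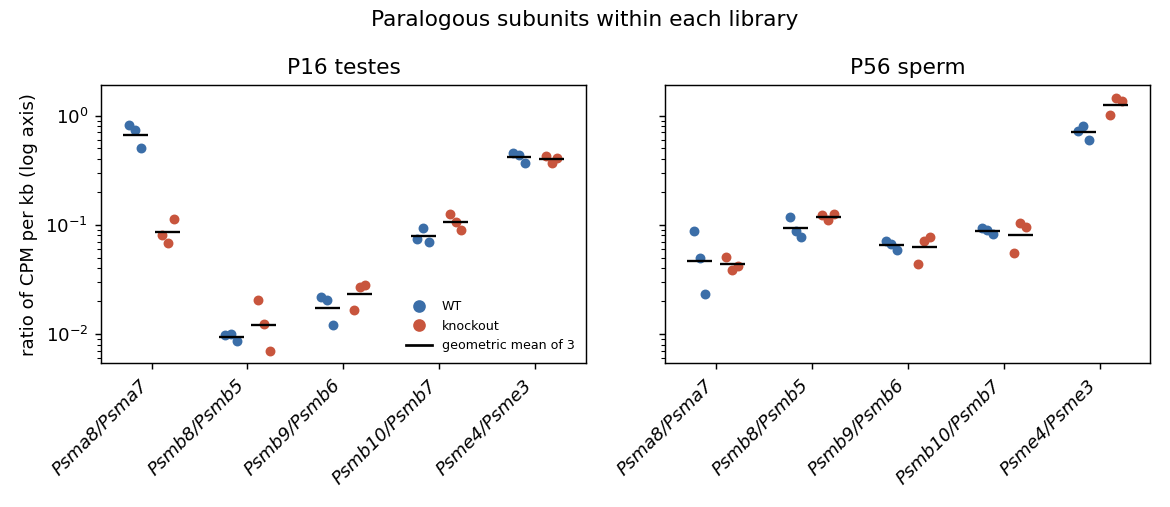
Ratio of CPM per kilobase (log axis) for 5 pairs of related subunits in every library of testes (left) and sperm (right). Points are WT (blue) and knockout (red) libraries and black bars geometric means. The Psma8/Psma7 groups are apart in testes (0.668 and 0.0858), and the Psme4/Psme3 groups are apart in sperm (0.706 and 1.26).

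The 19S base ATPases unfold substrates and open the gate. Psmc3 had 8061, 8771 and 6437 counts across WT, against 3963, 4618 and 3851 across Xap5 cKO testes, the largest fall among ATPases and the second largest among the members after Psma8. Its level was 220 ± 35.4 CPM in WT and 125 ± 9.46 in cKO testes, with no overlap (log2 fold change -0.81, SE 0.115, adjusted p = 0.000363, edgeR). Antisense to Psmc3, Slc39a13 overlaps 8.25% of its exonic length, and no source used here states if counting was strand-aware. Larger antisense overlaps are annotated for Psmd9 (25.5%), Psmb8 (14.7%), Psmb7 (11.8%) and Psmd13 (10.1%). Larger same-strand overlaps are annotated for Psmb5 (12.1%) and Psmg3 (9.68%). Besides Psmc3, the base ATPases Psmc5 (-0.43), Psmc4 (-0.35), Psmc1 (-0.27) and Psmc6 (-0.25) were downregulated. Psmc2 was the exception at -0.21 (adjusted p = 0.0886), and its groups overlapped.

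Among the non-ATPase subunits of the cap, Psmd2, a scaffold that binds ubiquitin-like domains, was per length the most abundant member in WT testes, at 183 CPM per kilobase. WT libraries held 18512, 20626 and 18166 Psmd2 counts, compared with 11181, 12976 and 12251 in those of Xap5 cKO testes. The groups were apart, and the log2 fold change was -0.56 (SE 0.0623, adjusted p = 1e-04, edgeR). Psmd8 (-0.45), Psmd11 (-0.42), Psmd1 (-0.41), Psmd13 (-0.36) and Psmd6 (-0.34) were downregulated too. Psmd7, the inactive partner of the deubiquitinase Psmd14, went the other way. It had 5689, 6150 and 6222 counts across WT, against 6425, 7471 and 7460 across cKO testes, and in CPM it rose from 170 ± 2.27 to 215 ± 13.9 (0.34, adjusted p = 0.00163). Psmd14 itself was at 99.1 ± 3.46 and 93.9 ± 6.93 CPM and was not called (-0.08, adjusted p = 0.41). Psmd3, Psmd4 and Psmd12 were likewise not called.

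Assembly chaperones for the core and the cap differed from gene to gene. Psmg2, which pairs with Psmg1 to build the alpha ring, had 1448, 1576 and 1600 counts in the WT libraries, compared with 793, 922 and 902 in those of Xap5 cKO testes, with no overlap (log2 fold change -0.73, SE 0.091, adjusted p = 0.000187, edgeR). Psmg1 was downregulated by both of its entries, by -0.56 for the first and by -0.75 for Psmg1-2, whose counts were 706, 764 and 671 across WT, against 439, 484 and 266 across cKO testes. Psmg3 (0.12) and Psmg4 (-0.28) were not called. Of the cap chaperones, Psmd5 was downregulated (-0.31, lost in 2 of the 6 fits without 1 library) and Psmd9 was not called (-0.01). Psmd10, also known as gankyrin, had 566, 374 and 530 counts across WT, against 479, 454 and 522 across cKO testes and was not called (0.08). Its second entry, Psmd10-2, had 112, 319 and 297 counts in the WT libraries, compared with 456, 442 and 486 in those of cKO testes, and was the only member entry to rise by more than 2-fold (1.04, SE 0.318, adjusted p = 0.0213). WT replicate 1 stood far below its group there, and the 2 entries summed gave 0.47 (adjusted p = 0.00802).

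Of the activators and Psmf1, 2 were called lower, 1 higher and 3 not. Psme4 had 8915, 8940 and 7831 counts across WT, against 5234, 5193 and 5242 across Xap5 cKO testes, a clear separation, with 243 ± 24.0 CPM in WT and 158 ± 5.23 in cKO testes (log2 fold change -0.62, SE 0.077, adjusted p = 0.000179, edgeR). Psme3, the nuclear ring that acts without ATP, had 7994, 8332 and 8717 counts in the WT libraries, compared with 5018, 5842 and 5208 in those of cKO testes (-0.55, adjusted p = 9.25e-05). Since both fell, their ratio per length was 0.42 in WT and 0.401 in cKO testes (exact permutation p = 0.5). Psme1, a subunit of the interferon-inducible activator, had 1531, 1630 and 1675 counts across WT, against 1740, 2073 and 1670 across cKO testes, and was upregulated (0.28, adjusted p = 0.0298). That call was lost in 4 of the 6 fits that left out 1 library. Psme2, its partner, had 1246, 1396 and 1617 counts in the WT libraries, compared with 1402, 1642 and 1434 in those of cKO testes and was not called (0.17, adjusted p = 0.196). Psme2b had 117, 193 and 93 counts across WT, against 185, 232 and 96 across cKO testes (0.45, adjusted p = 0.339), and Psme2b-2 had 111, 205 and 103 WT counts and 188, 241 and 99 cKO counts (0.43, adjusted p = 0.352). Psmf1, a regulator that inhibits the core in vitro, was at 46.3 ± 0.378 and 43.5 ± 2.05 CPM (-0.09, adjusted p = 0.386). Psme3ip1, at 88.1 ± 3.07 and 77.5 ± 2.74 CPM, was among the 24 called lower (-0.19, adjusted p = 0.0434), a call lost in 5 of the 6 fits without 1 library.

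**Figure D3:**
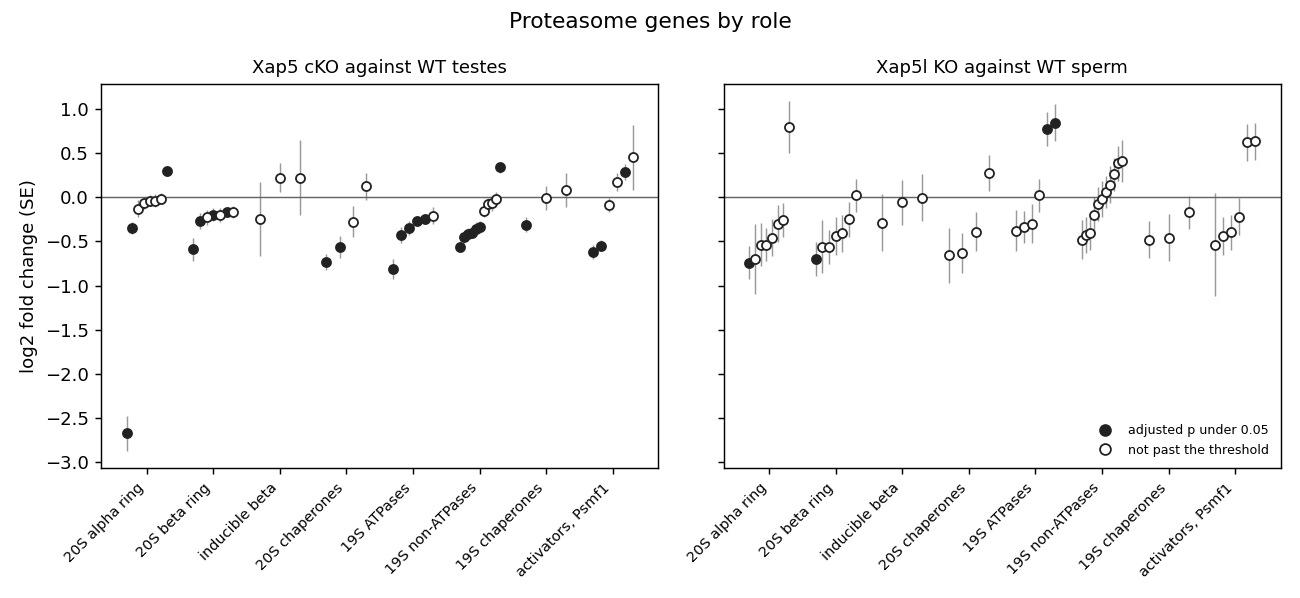
Log2 fold change (KO minus WT, bars are SE) of each tested member, entries with an added number and Psme3ip1 left out, grouped by role, for testes (left) and sperm (right). Filled points passed an adjusted p of 0.05. In testes Psma8 lies alone at -2.67 and the other called falls between -0.81 and -0.17, whereas in sperm 4 genes are filled.

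Proteasome genes and partners without the Psm name, the cap subunits Adrm1 and Sem1 among them, did not follow a single direction in the testis. Of 16 tested, 6 were upregulated and 2 downregulated, with a median log2 fold change of 0.01. Adrm1 was upregulated (0.18) and Sem1 was not called (0.12). Nfe2l1 (0.36) and Nfe2l2 (0.66), transcription factors for stress and proteasome genes, were upregulated, while Uchl5, a deubiquitinase of the cap, was downregulated (-0.78). Of 17 genes for ubiquitin supply and shuttling, 5 were upregulated and 5 downregulated, and Rps27a, a ubiquitin fusion gene, rose by more than 2-fold (1.37). Of 12 genes of antigen processing and interferon response, 6 were upregulated and the others not called, with Cd74 (1.20) and Irf8 (1.03) over 2-fold.

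Other cell types moved with these results. In Xap5 cKO testes 7 of 8 Sertoli markers were upregulated, and their summed level was 4200 to 4620 CPM in WT and 7250 to 8920 in cKO testes. Leukocyte markers summed to 81.9 to 113 CPM in WT and 169 to 231 in cKO testes, with 7 of 8 upregulated. Leydig and peritubular markers summed to 618 to 857 CPM in WT and 946 to 1330 in cKO testes, with 4 of 7 upregulated. All 10 leptotene and zygotene markers were downregulated, from sums of 2400 to 2800 to sums of 1110 to 1480 CPM. Of 8 spermatogonia markers 6 were downregulated and 1 upregulated, with sums of 1460 to 1630 CPM in WT and 888 to 936 in cKO testes. The part of these shifts in the changes of the proteasome genes was not tested.

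In sperm, the question was which genes change when Xap5l is absent. Few proteasome genes were called. Of 48 tested members 2 were upregulated, both base ATPases (Psmc2 and Psmc3), and 2 downregulated, both core subunits (Psma2 and Psmb1), and none passed 2-fold in edgeR or in DESeq2. The remaining 44 were not called. By share, 4.17% of members were higher and 4.17% lower, against 9.02% and 3.07% of all 20945 tested genes. Here too the shares were not matched for level, with medians of 26.6 CPM for members and 5.71 for all genes. For changes over 2-fold, 7.59% of all genes were higher and 1.27% lower. At an unadjusted p under 0.05, 5 members were higher (10.4%) and 7 lower (14.6%), against 18.6% and 14.9% of all genes.

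The median log2 fold change of the members in sperm was -0.30, with quartiles of -0.47 and 0.02, and that of all genes was -0.08. There were 13 positive and 35 negative estimates, so 72.9% were negative, against 54.3% of all genes. In 13 members every Xap5l KO library lay below every WT library and in 8 every one lay above, and for all genes these shares were 19.2% and 19.2%. By role, the median was -0.51 for core assembly chaperones, -0.50 for the alpha ring and -0.44 for the beta ring. It was -0.46 for cap assembly chaperones, -0.31 for activators with Psmf1 and -0.14 for base ATPases. The inducible beta subunits were at -0.06 and the non-ATPase cap subunits at -0.02.

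Psmc3 had 2665, 2957 and 3120 counts in the WT libraries, compared with 4713, 7993 and 6475 in those of Xap5l KO sperm. Each KO library was above each WT library, at 72.8 ± 7.11 CPM in WT and 130 ± 17.1 in KO sperm (log2 fold change 0.84, SE 0.21, adjusted p = 0.0350, edgeR). Psmc2 had 2066, 2476 and 2600 counts across WT, against 3248, 5647 and 6263 across KO sperm, and was at 59.2 ± 3.30 and 101 ± 7.45 CPM (0.77, adjusted p = 0.0353). The other 4 base ATPases had log2 fold changes from -0.38 to 0.02 and were not called. Of the 6 fits that left out 1 library, 4 lost the calls of Psmc2 and Psmc3, so both rest on a narrow margin.

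Psma2 had 1180, 1659 and 1849 counts in the WT libraries, compared with 779, 1185 and 1464 in those of Xap5l KO sperm, which is 38.4 ± 2.24 and 22.9 ± 1.95 CPM with no overlap (log2 fold change -0.74, SE 0.186, adjusted p = 0.0343, edgeR). Psmb1 had 1830, 2904 and 3211 counts across WT, against 1317, 2228 and 2415 across KO sperm, which is 64.6 ± 7.88 and 39.8 ± 1.96 CPM (-0.70, adjusted p = 0.0463). Their calls were lost in 4 and 5 of the 6 fits without 1 library.

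Several members missed the threshold in sperm although their groups were apart, in both directions. Nearest to it on the lower side were Psma1 (log2 fold change -0.54, adjusted p = 0.0799, edgeR), Psmb3 (-0.56, 0.0803) and Psmg1 (-0.63, 0.0898). Nearest on the higher side were Psme4, Psmf1 and Psma6. Psme4 had 3931, 5096 and 5732 counts in the WT libraries, compared with 5912, 11890 and 10515 in those of Xap5l KO sperm, which is 121 ± 2.23 and 188 ± 23.9 CPM (log2 fold change 0.63, SE 0.21, adjusted p = 0.0739, edgeR). Psmf1 had 4010, 4049 and 4712 counts across WT, against 6173, 8684 and 9165 across KO sperm (0.62, adjusted p = 0.0773). Psma6 had 5639, 5930 and 5734 counts in the WT libraries, compared with 7715, 9862 and 20825 in those of KO sperm, where replicate 3 alone was at 357 CPM against 220 and 178 (0.79, adjusted p = 0.0966). Per length Psma6 was the most abundant member in sperm, at 139 CPM per kilobase in WT and 242 in KO sperm. DESeq2 called Psme4 (adjusted p = 0.0127), Psmf1 (0.019) and Psma6 (0.0295) higher. It did not call Psma1 (0.0802), Psmb3 (0.082) or Psmg1 (0.107).

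The ratio of Psme4 to Psme3 per length was 0.723, 0.811 and 0.6 across WT sperm, against 1.01, 1.46 and 1.35 across Xap5l KO sperm. The groups did not overlap, and the geometric means were 0.706 and 1.26 (exact permutation p = 0.1, the smallest possible). Psme3 had 2231, 2579 and 3924 counts across WT, against 2412, 3345 and 3188 across KO sperm and was not called (log2 fold change -0.22, adjusted p = 0.492). Psme1 (-0.40), Psme2 (-0.44) and Psme2b (-0.54) were not called either.

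Psma8 was the least abundant alpha subunit in sperm. WT libraries held 179, 168 and 80 Psma8 counts, compared with 82, 104 and 153 in those of Xap5l KO sperm, and the groups overlapped at 3.72 ± 1.87 and 2.28 ± 0.377 CPM (log2 fold change -0.70, SE 0.392, adjusted p = 0.234, edgeR). Psma7 had 1106, 1834 and 1841 counts across WT, against 868, 1460 and 1975 across KO sperm (-0.46, adjusted p = 0.158). Their ratio per length was 0.0467 in WT and 0.0435 in KO sperm (exact permutation p = 0.9), and it ranged from 0.0235 to 0.0874 within WT alone.

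The inducible subunits in sperm were not called either, and Psmb11 had 7 or fewer counts per library and was not tested. Psmb8 had 202, 215 and 206 counts in the WT libraries, compared with 148, 242 and 376 in those of Xap5l KO sperm, Psmb9 had 176, 176 and 201 against 112, 289 and 309, and Psmb10 had 118, 176 and 150 against 59, 196 and 218. Their log2 fold changes were -0.06, -0.01 and -0.29, with overlapping groups. Per length, the ratio to the constitutive partner was 0.0931 in WT and 0.119 in KO sperm for Psmb8 to Psmb5 (exact permutation p = 0.2). It was 0.0656 and 0.0627 for Psmb9 to Psmb6 and 0.0884 and 0.0814 for Psmb10 to Psmb7, each with an exact permutation p = 1. Psmb5 (-0.41), Psmb6 (0.02) and Psmb7 (-0.25) were not called.

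**Figure D4:**
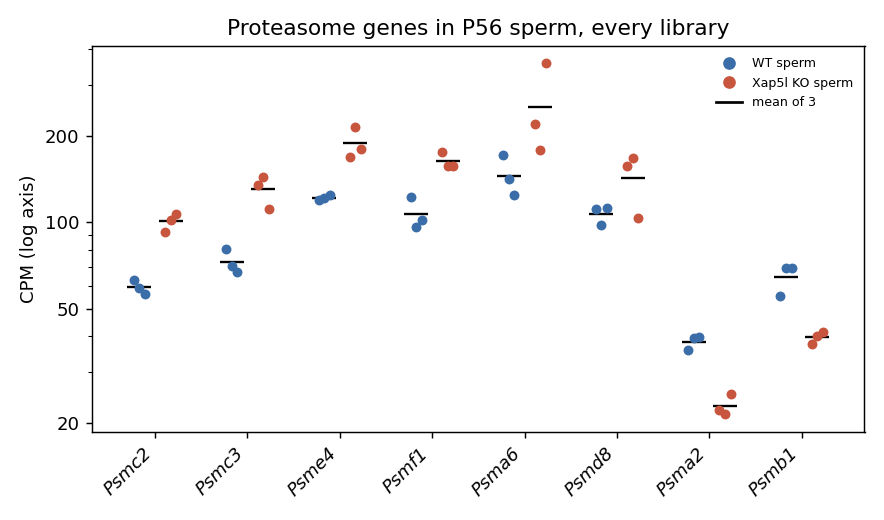
CPM (log axis) of 8 proteasome genes in every sperm library, WT (blue) and Xap5l KO (red), with means of 3 as black bars. Psmc2 and Psmc3 lie higher and Psma2 and Psmb1 lower in all 3 KO libraries, while the KO libraries of Psma6 spread from 178 to 357 CPM.

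Of the proteasome genes and partners outside the name rule, 2 of 17 were upregulated in sperm, both over 2-fold. Ngly1, a glycanase that processes Nfe2l1, rose by 1.09 on the log2 scale (adjusted p = 0.0238, edgeR). Ddi1, a retroviral-type aspartic protease, rose by 1.20 (adjusted p = 0.0255). Nfe2l1 itself was not called (-0.08). Of 19 ubiquitin supply and shuttle genes 1 was downregulated (Ubqln2), and of 12 antigen processing genes 1 was downregulated (Cd74, -1.04).

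Leukocyte markers summed to 819 to 873 CPM in WT and 175 to 522 in Xap5l KO sperm, and 4 of 10 were downregulated. Epididymal epithelium markers summed to 6020 to 8120 CPM in WT and 4240 to 5940 in KO sperm, with none of 6 tested called, and Sertoli markers to 639 to 759 and 1050 to 1330 CPM, where 1 of 7 tested was called lower and Clu (0.81, not called) alone had a positive estimate. Pachytene spermatocyte markers summed to 1290 to 2230 CPM in WT and 2300 to 3160 in KO sperm, with 4 of 10 upregulated. Among them Piwil1 (-0.97) and Mybl1 (-0.17) had negative estimates and were not called. The largest part of the sum was Pgk2, at 1030 CPM in WT and 1390 in KO sperm, which was not called (0.44). Of 10 spermatid markers 4 were upregulated, but their sums overlapped, at 23400 to 48300 CPM in WT and 25500 to 46000 in KO sperm. The spermatid marker Odf1 had a negative estimate (-0.69, not called). The TMM factors of replicate 1 were 0.821 in WT and 0.808 in KO sperm, against 1.08 to 1.12 in the other sperm libraries. The part of these differences in the proteasome results was not tested.

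Side by side, 48 members were tested in both tissues. Their estimates were lower than WT in both comparisons for 26 members, higher in sperm but lower in testes for 13, lower in sperm but higher in testes for 9, and higher in both for none. Only Psmc3 and Psmb1 were called in both. Psmc3 was upregulated in Xap5l KO sperm (0.84) and downregulated in Xap5 cKO testes (-0.81). Leaving out 1 library ended the Psmc3 call in 4 of 6 sperm fits and 0 of 6 testis fits. Psmb1 was called lower in both (-0.70 and -0.17), although leaving out 1 library ended its call in 5 of 6 sperm fits and 3 of 6 testis fits. Psme4 had estimates of 0.63 in sperm, not called, and -0.62 in testes. The tissues, ages and knocked-out genes differ between the 2 comparisons, so the difference between them was not tested.

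**Figure D5:**
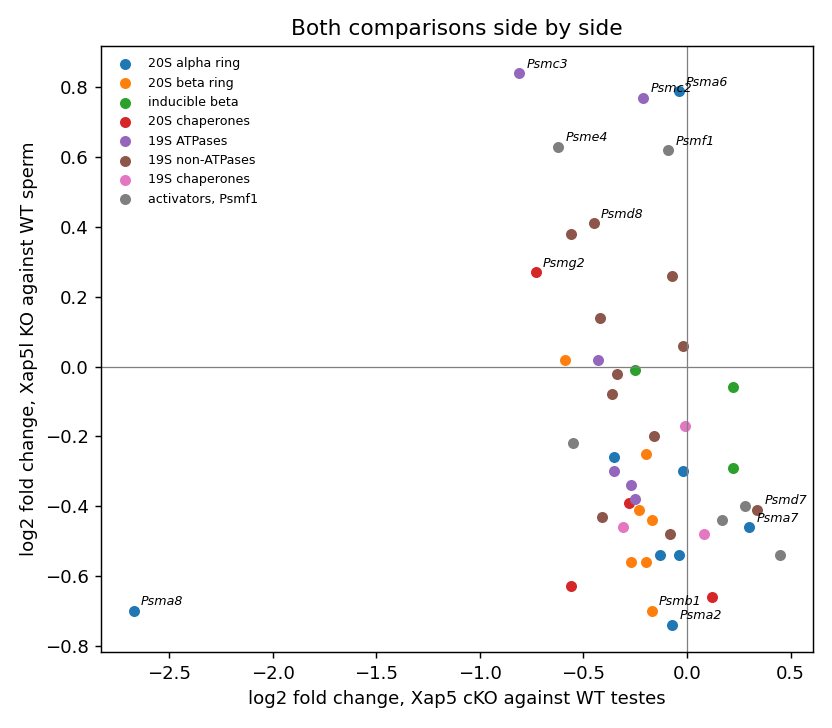
Log2 fold change (KO minus WT) of the 48 members tested in both tissues, Xap5 cKO testes on the x axis and Xap5l KO sperm on the y axis, coloured by role. The upper right quadrant is empty, Psma8 lies far left at -2.67, and Psmc3 lies at the top at 0.84.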

How the data were processed

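Poly(A) RNA-seq of 12 libraries was analysed. Per the submitters' processing notes and the study's methods, reads were checked and trimmed (FastQC 0.11.2, Trimmomatic 0.36), mapped to GRCm38/mm10 with HISAT2 2.1.0 and assembled with StringTie, and DESeq2 1.12.4 was used for testing. The authors deposited raw counts per gene, 1 table per tissue. The counting tool, its strand setting and how it treated multi-mapping reads are not given in the sources used here, so overlapping and near-identical genes are uncertain.

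Groups came from the sample labels. Within each tissue, counts were filtered (filterByExpr), scaled by TMM and tested with edgeR 4.0.16 (quasi-likelihood, genotype as the only term, R 4.3.3), and p-values were adjusted by Benjamini-Hochberg over all tested genes. A call needed an adjusted p under 0.05, and changes over 2-fold are given separately. The scripts were tested on simulated data. Levels per kilobase used the longest APPRIS principal transcript of GENCODE vM21. Paralog ratios were compared by exact two-sided permutation tests. Promoters were taken from RefSeq (GRCm38.p6).

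The members and gene lists were chosen with earlier results of these data known. Every member was described by role, with values per library for Psma8, Psma7, the inducible and constitutive catalytic subunits, the activators, members changed over 2-fold and the 3 largest called rises and falls per tissue. The design text calls the 3 libraries per genotype biological replicates. Alternatives were no filter, a minimum of 10 counts, RLE factors, library size alone, DESeq2 1.42.0, a replicate block, an adjusted p under 0.01 and leaving out each library. The 3 alternatives on repeated entries and on transcript length were chosen after seeing the data.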

Additional observations from a re-analysis of the deposited data

How the results depend on the processing

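In testes, Psma8 was downregulated over 2-fold in every alternative run, and the count of members lower at any fold ran from 19 to 27 without 1 library, against 24. At an adjusted p under 0.01 the lower calls of Psmb1, Psmb2, Psmb3, Psmd5, Psmg1-2 and Psme3ip1 were lost. The count higher at any fold, 4, was 2 at an adjusted p under 0.01 and 2 to 5 without 1 library, the lowest without Xap5 cKO replicate 1. The single rise over 2-fold (Psmd10-2) became 0 at an adjusted p under 0.01, with only 1 entry per name and with entries of 1 name summed, and was 0 to 1 without 1 library (0 without WT replicate 1, cKO replicate 1 or cKO replicate 3). In sperm, the 2 members called higher became 0 with library size alone, 0 at an adjusted p under 0.01, 5 with DESeq2 and 0 to 5 without 1 library (5 without Xap5l KO replicate 3, and 0 without WT replicate 2 or 3 or KO replicate 1 or 2). The 2 called lower became 0 without a filter, 1 with RLE factors, 0 with library size alone, 0 at an adjusted p under 0.01 and 0 to 3 without 1 library (0 without WT replicate 2 or 3 or KO replicate 1 or 2). The count higher over 2-fold in sperm was 0 to 1, the 1 being Psmc3 (1.02) without Xap5l KO replicate 3. The causes were not tested. No direction of a called value reversed.

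Whether the replicate numbers pair the samples could not be settled with 3 libraries per group. Deviations of same-numbered libraries from their group means correlated at 0.166, -0.024 and -0.122 in sperm and at 0.00711, -0.0302 and -0.0345 in testes. Differently numbered sperm libraries correlated at -0.179 to 0.241. In sperm, replicate 1 had the lowest TMM factor of both WT (0.821) and Xap5l KO (0.808). With the replicate block, 0 members were higher and 0 lower in sperm, and 21 were lower in testes.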
